A study of Mus musculus with 12 samples.

Results

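The genes described here are the heat shock proteins and DnaJ chaperones of the E14 mouse cortex, with the transcription factors Hsf1 and Hsf2. Members were all symbols in the count tables that begin with Hspa, Hspb, Hspd, Hspe, Hsph or Hsp90 and continue, or that begin with Dnaja, Dnajb or Dnajc and a digit, plus Hsf1 and Hsf2. The rule found 74 of 23513 genes and used no measured value. Nuclei came from cortices of C57BL/6J embryos whose dams received 2.5 g/kg EtOH or saline by intraperitoneal injection once a day for 6 days from E8 to E13, with tissue taken on E14. Counts were available for 5 saline embryos (S1-1, S1-2, S2-1, S2-2 and S2-4) and 6 EtOH embryos (E1-1, E1-2 and E2-1 to E2-4), and 1 further saline sample was not used here. Each treatment had 2 dams, so littermates were treated as independent embryos and the p-values carry no term for the dam. Dams S1 and E1 were processed as batch 1 and dams S2 and E2 as batch 2. A fit of 1 batch therefore compares 1 litter with 1 litter, and its p-values cannot separate treatment from dam.

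Many heat shock proteins are chaperones that bind unfolded or partly folded proteins. Many of these chaperones use ATP to help such proteins fold, assemble or reach a membrane. HSP70 proteins work in cycles with J-domain co-chaperones (the DNAJA, DNAJB and DNAJC families), which deliver substrates and start ATP hydrolysis, and with exchange factors such as the HSP110 proteins, which release ADP. HSP90 proteins act later, on kinases, steroid receptors and other near-native clients. Under heat, oxidants or misfolding, the transcription factor HSF1 binds heat shock elements and induces a subset of these genes, while many members are made constantly as housekeeping genes. In the embryonic brain, HSF1 and HSF2 are known for roles in neural progenitors and in cortical neuron migration.

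The files held 50550 nuclei in 25 clusters that the study had named, and the total per embryo ran from 14078316 to 83061737 UMIs (unique transcript counts). This is fewer nuclei than the study's own total, and the gap was not resolved here. Clusters were grouped as radial glial cells (RGC), intermediate progenitors (IPC), projection neurons (PN), interneurons (Int) and others, and the defining markers Hes1 (74.1 CPM in RGC), Eomes (347 CPM in IPC), Neurod2 (187 CPM in PN) and Gad2 (962 CPM in Int) were each highest in the type of that name. Of 50226 distinct barcodes, 314 occurred in more than 1 embryo. CPM is a gene's UMI count scaled to a common total over the nuclei summed, as is usual for sequencing counts. Several libraries differed from their group in makeup or depth. PN nuclei made up 18.3% of S2-1, against 29.8% to 33.6% of the other saline embryos. S2-2 had 147 CPM of the summed erythroid markers, against 7.48 to 59.0 CPM in the other saline embryos. E1-1 had 4858 UMIs per nucleus, against 7359 to 8237 in the other EtOH embryos. One saline library stood nearer to EtOH in several values. Saline embryo S2-4 had 7474 UMIs per nucleus, against 9898 to 10873 in the other saline embryos and 4858 to 8237 in EtOH, and 15973 CPM of the nuclear RNA Malat1, against 12156 to 13882 and 15123 to 17389. Of the 4245 genes called when S2-4 was left out, S2-4 itself lay nearer to the EtOH mean than to the mean of the other saline embryos for 86.2%, and for 11 of the 12 members called. S2-4 stood with saline in its number of nuclei (7215, against 4437 to 7639 in the other saline embryos and 2346 to 4928 in EtOH) and in total UMIs (53924776, against 44017566 to 83061737 and 14078316 to 38034349). The first set of values lies nearer to EtOH and the second to saline. UMIs per nucleus also differed within a group, as in E1-1, so depth alone does not test a label. Whether the label of S2-4 is wrong or its library differs in quality could not be told apart here. Results are therefore given with and without S2-4. Where S2-4 lay near EtOH, leaving it out widens the difference between the groups and narrows the saline spread. For such genes, the larger changes and smaller p-values without S2-4 follow from that choice and are no separate support. UMIs per nucleus, Malat1 and the summed microglial markers (4 of 4 in the files, none at 0, 15 to 24.3 CPM in the other 4 saline embryos, 32.4 in S2-4 and 27.7 to 37.0 in EtOH) moved with the treatment once S2-4 was out. Fits on nuclei thinned to 2000 UMIs set depth per nucleus equal. With all embryos, these fits left no member called in any cluster or single major type. Only Hsp90aa1 and Hsph1 stayed called over all nuclei. Thinning also removes counts from every gene, and no share of all genes called is given for these fits. A lost call can therefore come from fewer counts alone. The part of Malat1 and of the microglial markers was not tested. RGC nuclei made up 21% to 31.2% of each saline embryo and 17.2% to 23.5% of each EtOH embryo, so sums over all nuclei mix differences per cell with differences in makeup. Fewer cells of a type and less RNA per cell cannot be told apart in such sums.

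Of the stress-inducible members, Hspa1a, Hspa1b and Hspb1 were nearly silent in every embryo, while Hsp90aa1 and Hsph1, described below, were well detected. Hspa1a and Hspa1b, the HSP70 genes that heat and oxidants induce most strongly, gave 10 and 24 UMIs over all 50550 nuclei. Hspa1a was between 0 and 0.07 CPM in each embryo and Hspa1b between 0 and 0.14 CPM. Hspb1, the small heat shock protein HSP27, gave 36 UMIs. Each of these genes was below the filter on low counts, so the EtOH effect on them was not detectable at this depth. Dnajb1, the inducible J-protein HSP40, gave 788 UMIs. It measured 1.47, 1.42, 1.70, 2.41 and 1.89 CPM in S1-1, S1-2, S2-1, S2-2 and S2-4 and a lowest, median and highest of 1.37, 1.93 and 2.56 CPM in EtOH. The groups overlapped across their whole range (log2 fold change 0.06 ± 0.17 SE, adjusted p = 0.838, edgeR quasi-likelihood test with Benjamini-Hochberg adjustment over all genes of the fit). In all, 9 members were too low to be tested over all nuclei: Hspa1a, Hspa1b, Hspa2, Hspb1, Hspb3, Hspb9, Dnajb13, Dnajc5g and Dnajc25.

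The regulators were well detected. Hsf1, the master regulator of the heat shock response, was at 26.6, 28.0, 27.9, 29.8 and 31.4 CPM in the 5 saline embryos in the same order, and at 28.3, 30.5 and 32.3 CPM (lowest, median, highest) in EtOH. Its groups overlapped, with a log2 fold change of 0.01 ± 0.04 SE (adjusted p = 0.878, edgeR with Benjamini-Hochberg adjustment). Hsf2, a partner of HSF1 that is active in development, was at 74.3, 70.9, 74.9, 77.2 and 76.5 CPM in saline and at 69.4, 70.8 and 72.4 CPM in EtOH. Most EtOH embryos lay near or below the lowest saline embryo. The difference was small (log2 fold change -0.15 ± 0.04 SE) and passed adjustment (adjusted p = 0.0248, edgeR with Benjamini-Hochberg adjustment) but not the fold limit (over 25% higher or over 20% lower) that a call also required. Neither gene was called in any cluster or type, with or without S2-4.

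HSF1 binds inverted repeats of a 5-base unit, and the RefSeq promoter windows (250 bases before to 50 bases after a start site, GRCm38.p6) were searched on both strands for pairs of units (GAANNTTC or TTCNNGAA) and for at least 3 alternating units in a row, a longer match that contains a pair. Windows were found for 60 members. Such a run stood in 7.79% of 77 member windows and in 0.603% of all 32851 windows, and a pair in 23.4% and 15.1%. The 6 member windows with a run hold only 3 distinct stretches, since Hspd1 and Hspe1 share 1 and Dnajb6 and Hsph1 each have theirs in 2 overlapping windows. The runs had 4 units at Hspd1 and Hspe1 and 3 units at Dnajb6 and Hsph1, and the 30 bases around each are shown to set them beside the values that follow, with the run in capitals. Hspd1 and Hspe1 share 1 stretch, chr1:55088053-55088082, read from the - strand for Hspd1 and from the + strand for Hspe1. The Dnajb6 stretch is chr5:29735844-29735873 on the + strand, with its run before the start site, and the Hsph1 stretch is chr5:149636279-149636308 on the - strand, with its run just after it.
Hspd1: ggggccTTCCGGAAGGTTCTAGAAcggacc
Hspe1: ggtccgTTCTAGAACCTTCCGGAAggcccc
Dnajb6: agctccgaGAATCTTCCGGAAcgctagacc
Hsph1: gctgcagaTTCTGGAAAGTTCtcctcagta
The match describes these letters only. Among the 4 genes, Hsph1 was the only one called after EtOH. Hspd1 and Hspe1, the mitochondrial chaperonin and its lid, had log2 fold changes of -0.14 ± 0.06 SE and 0.01 ± 0.09 SE over all nuclei (adjusted p = 0.119 and 0.935, edgeR with Benjamini-Hochberg adjustment). Dnajb6, a J-protein that suppresses aggregation, had -0.02 ± 0.05 SE (adjusted p = 0.817, same test). Of the other members called with all embryos, Dnajc27 had a pair but no longer run, Hspa4l, Dnajc19 and Hsp90b1 had neither, and no window of Hsp90aa1 was searched here.

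Most of the better detected members reached their highest level in a cluster of radial glia. Of the 49 members with a mean of at least 10 CPM in some cluster, 34 (69.4%) had their highest mean in an RGC cluster, against 47.8% of the 11621 genes that met the same limit. An IPC cluster was highest for 6 members, a PN cluster for 7, an interneuron cluster for 2 and no other cluster for any. These are levels of each gene against itself, over embryos with at least 10 nuclei of the cluster, and the clusters come from the same embryos, so they are given as a description.

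**Figure D1:**
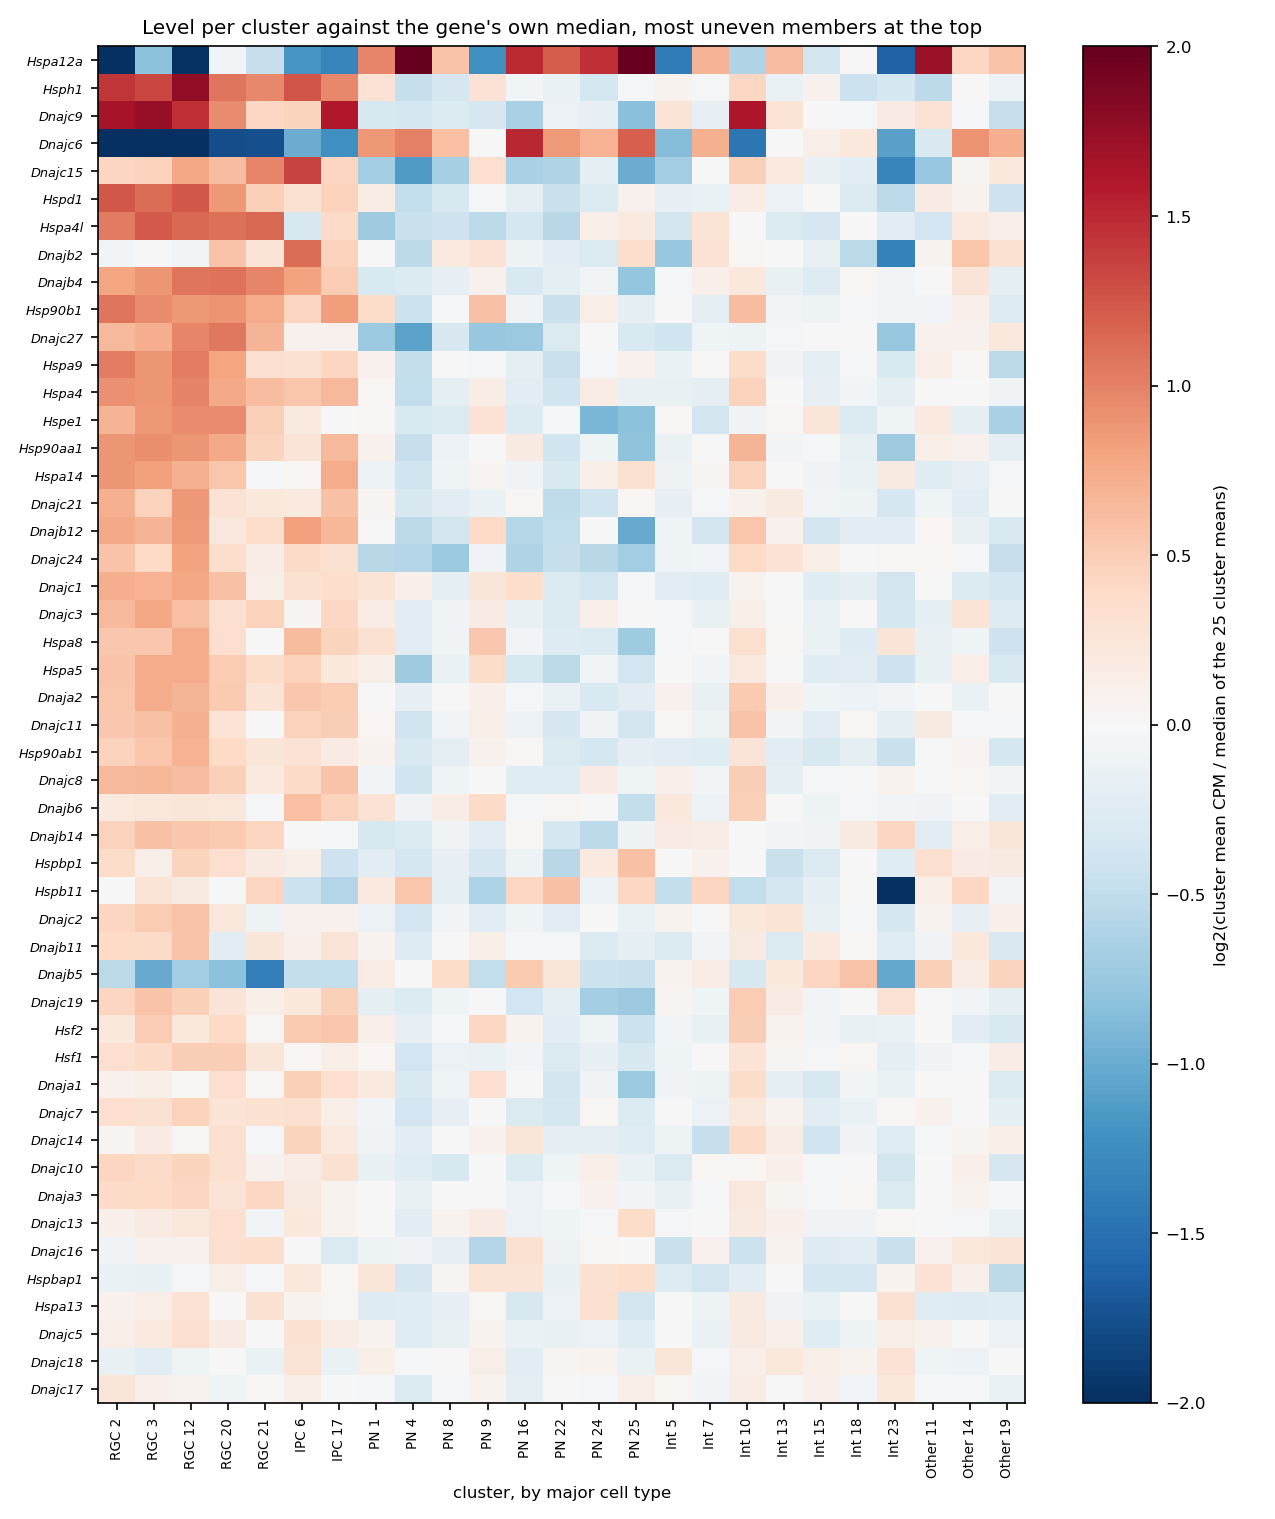
Level of the 49 members with at least 10 CPM in some cluster (rows) in the 25 clusters (columns, grouped by major cell type), as log2 of the cluster's mean CPM over embryos divided by the gene's own median over clusters, red above and blue below. The RGC columns at the left are red for most genes, while Hspa12a and Dnajc6 are blue there and red in PN Clusters 4, 16 and 25.

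The most uneven of these 49 members was Hspa12a, an atypical HSP70 relative. It averaged 85.2 ± 13 CPM (SD, n = 7) in Cluster 25 and 81.2 ± 10.4 CPM in the rostral subcortical PN of Cluster 4, which did not differ beyond their spread, and 4.14 ± 1.59 CPM in RGC 1 of Cluster 2. The highest mean was 4.96 times the median of the clusters. Dnajc6, the neuronal auxilin that uncoats clathrin vesicles with HSC70, had the same shape, with 183 ± 23.8 CPM (SD, n = 11) in the caudal subcortical PN of Cluster 16 and 9.36 ± 3.41 CPM in Cluster 2. Hsph1, the HSP110 exchange factor also called HSP105, had the opposite shape. It averaged 57.6 ± 12.8 CPM (SD, n = 11) in non-mitotic RGC of Cluster 12, ranged from 32.8 to 57.6 CPM over RGC clusters and from 12.2 to 20.6 CPM over PN clusters, and was 3.42 times its median at its highest. Dnajc9, a J-protein that also handles histones, was highest in Cluster 3 (20.5 ± 4.59 CPM) and Cluster 2 (19.4 ± 3.64 CPM), which overlap in spread, and lowest in Cluster 25 (3.44 ± 2.52 CPM). Dnajc15, of the mitochondrial import motor, was highest in non-mitotic IPC of Cluster 6 (59.3 ± 16.9 CPM), 2.54 times its median. Hspd1 was highest in Clusters 2 and 12, both at 47.7 CPM, 2.37 times its median.

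In the comparison of EtOH with saline, few members were called, and the share called higher was below that of all genes. A call required an adjusted p under 0.05 and a change of over 25% up or over 20% down. Over the 25 clusters, 1131 member tests on 54 members gave 0 higher calls and 4 lower calls (0.354%), where 0.239% of all 232744 tests were higher and 0.216% lower. An unadjusted p under 0.05 was reached by 147 member tests (13% of them, against 16.3% of all tests). DESeq2 called 8 higher and 7 lower, counts that cannot be set against all tests, since no share is given here. Without S2-4, 38 member tests were higher (3.41%) and 27 lower (2.43%), against 5.53% and 2.75% of all tests. Over all nuclei, 1 of 65 members was higher and 3 were lower, against 7.63% and 3.35% of all genes tested, and 8 and 4 without S2-4, against 16.3% and 6.95%. The median log2 fold change of the members over all nuclei was 0.01, as was that of all genes. Apart from the fit without S2-4, leaving out any 1 embryo left no member called in any cluster.

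**Figure D2:**
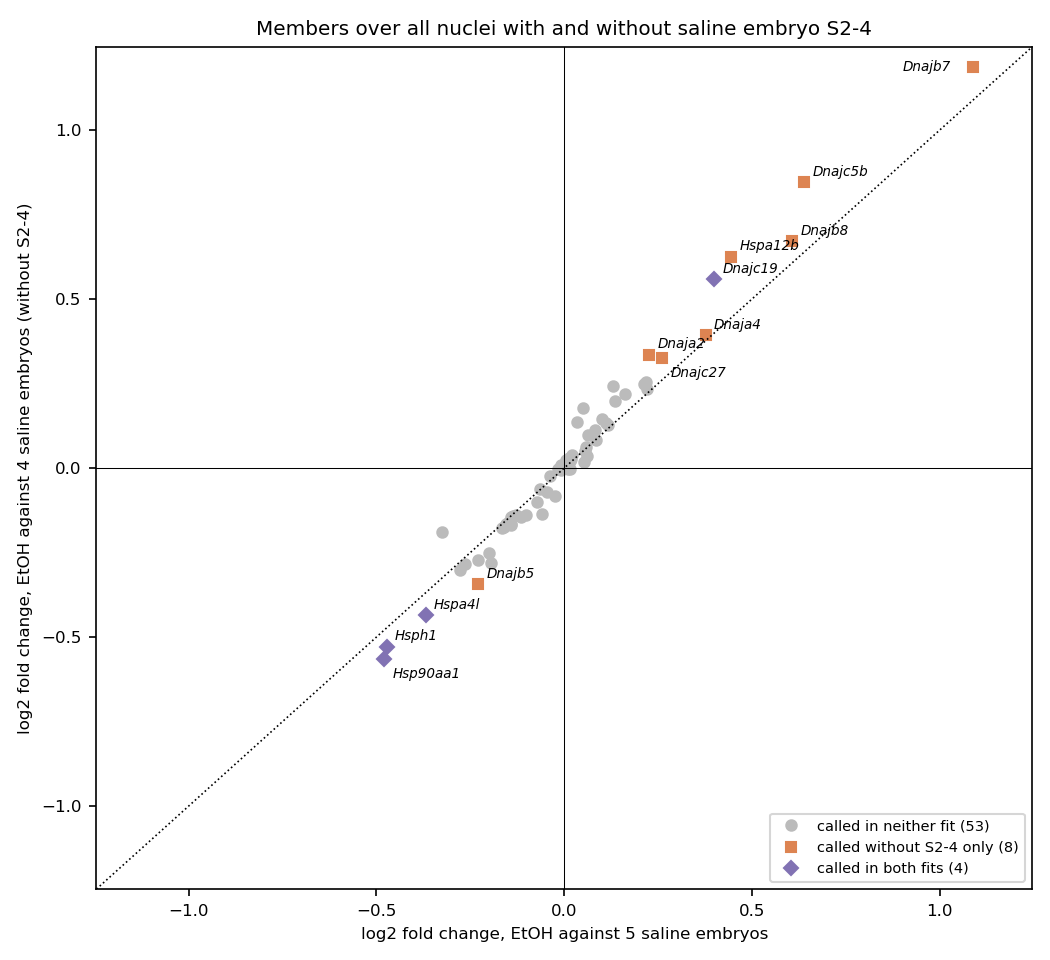
Each point is 1 of the 65 members tested over all nuclei, with the log2 fold change of EtOH against 5 saline embryos on the x axis and against 4 saline embryos (without S2-4) on the y axis, and the dotted line marks equal values. Diamonds are the 4 members called in both fits, squares the 8 called only without S2-4, and most squares and diamonds lie farther from 0 on the y axis than on the x axis.

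Among the members called over all nuclei, Hsp90aa1 and Hsph1 fell most, by amounts that differed by less than their SE. Hsp90aa1 is the inducible cytosolic HSP90 alpha (chr12:110690605-110702728, - strand, GRCm38). Over all nuclei it was at 28.2, 30.2, 38.4, 42.6 and 27.9 CPM in S1-1, S1-2, S2-1, S2-2 and S2-4, and at 24.3, 24.9 and 27.4 CPM (lowest, median, highest) in EtOH. Every EtOH embryo lay below every saline embryo, with S2-1 and S2-2 highest and S2-4 and S1-1 nearest to EtOH. Hsp90aa1 fell by 0.48 ± 0.10 SE on the log2 scale, a fold of 0.717 (adjusted p = 0.0183, edgeR with Benjamini-Hochberg adjustment), and by 0.57 ± 0.07 without S2-4 (adjusted p = 0.000137, same test). Each batch holds 1 dam per treatment, so treatment and dam cannot be told apart within it. Hsp90aa1 was 0.33 lower in batch 1 alone (adjusted p = 0.0311, edgeR with Benjamini-Hochberg adjustment), 0.56 lower in batch 2 (adjusted p = 0.176, same test) and 0.73 lower in batch 2 without S2-4 (adjusted p = 0.000308). Its value stayed between -0.57 and -0.39 in the 11 fits that each left out 1 embryo, of which 8 kept the call, and the call was lost without S1-2, S2-1 or E1-2 (highest adjusted p = 0.0591, same test).
In the RGC, Hsp90aa1 was at 47.6, 47.9, 55.1, 61.4 and 44.4 CPM in saline and at 35.1, 38.3 and 40.3 CPM in EtOH, again without overlap (log2 fold change -0.52 ± 0.08 SE, adjusted p = 0.0442, edgeR with Benjamini-Hochberg adjustment), where 1.33% of all genes in RGC were called higher and 1.1% lower. In the interneurons it was at 23.8, 26.8, 33.5, 29.4 and 27.7 CPM in saline and at 18.6, 23 and 27.9 CPM in EtOH, and the groups overlapped (-0.37 ± 0.10 SE, adjusted p = 0.0498, same test), where 2.41% and 0.855% of genes were called. Both calls were lost in most fits that left out 1 embryo. The difference between PN and RGC did not pass (0.18 ± 0.10 SE, adjusted p = 0.505, edgeR with the embryo as a block). With all embryos, Hsp90aa1 was not called in IPC, the other clusters or PN. Its values there were -0.56, -0.39 and -0.26 (adjusted p = 0.0555, 0.143 and 0.185, edgeR with Benjamini-Hochberg adjustment). In RGC 1 of Cluster 2 it was at 52.8, 48.4, 56.8, 58.3 and 44.6 CPM in saline against 34.4, 38.0 and 44.0 CPM in EtOH, so S2-4 lay just above the highest EtOH embryo (-0.51 ± 0.11 SE, adjusted p = 0.0413, same test). Hsp90aa1 was on the lower side in 21 of 22 clusters tested. Without S2-4 it was called lower in all 5 major types, with log2 fold changes from -0.69 in IPC to -0.35 in PN, and in 8 clusters, from -1.15 to -0.42.

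Hsp90ab1, the constitutive HSP90 beta, did not share this pattern. It was at 52.6, 53.3, 64.3, 93.0 and 81.3 CPM in saline and at 71.4, 76.5 and 79.8 CPM in EtOH. The saline embryos enclosed the EtOH embryos, since S1-1 and S1-2 were lowest and S2-2 and S2-4 highest (log2 fold change 0.08 ± 0.10 SE, adjusted p = 0.561, edgeR with Benjamini-Hochberg adjustment). It rose by 0.40 in batch 1 alone (adjusted p = 0.00615, same test) and was at -0.09 in batch 2 (adjusted p = 0.597, same test). Hspa8, the constitutive HSC70, was at 38.2, 33.4, 44.9, 68.2 and 60.1 CPM in saline and at 47.6, 55.4 and 62.1 CPM in EtOH. It also rose in batch 1 alone (0.48, adjusted p = 0.0125, same test) and not in batch 2 (-0.11, adjusted p = 0.657), and its pooled value was 0.10 ± 0.13 SE (adjusted p = 0.613). Whether the batches differed was not tested. Dnaja1, the main J-protein partner of HSC70, was at -0.10 ± 0.05 SE (adjusted p = 0.171, edgeR with Benjamini-Hochberg adjustment).

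**Figure D3:**
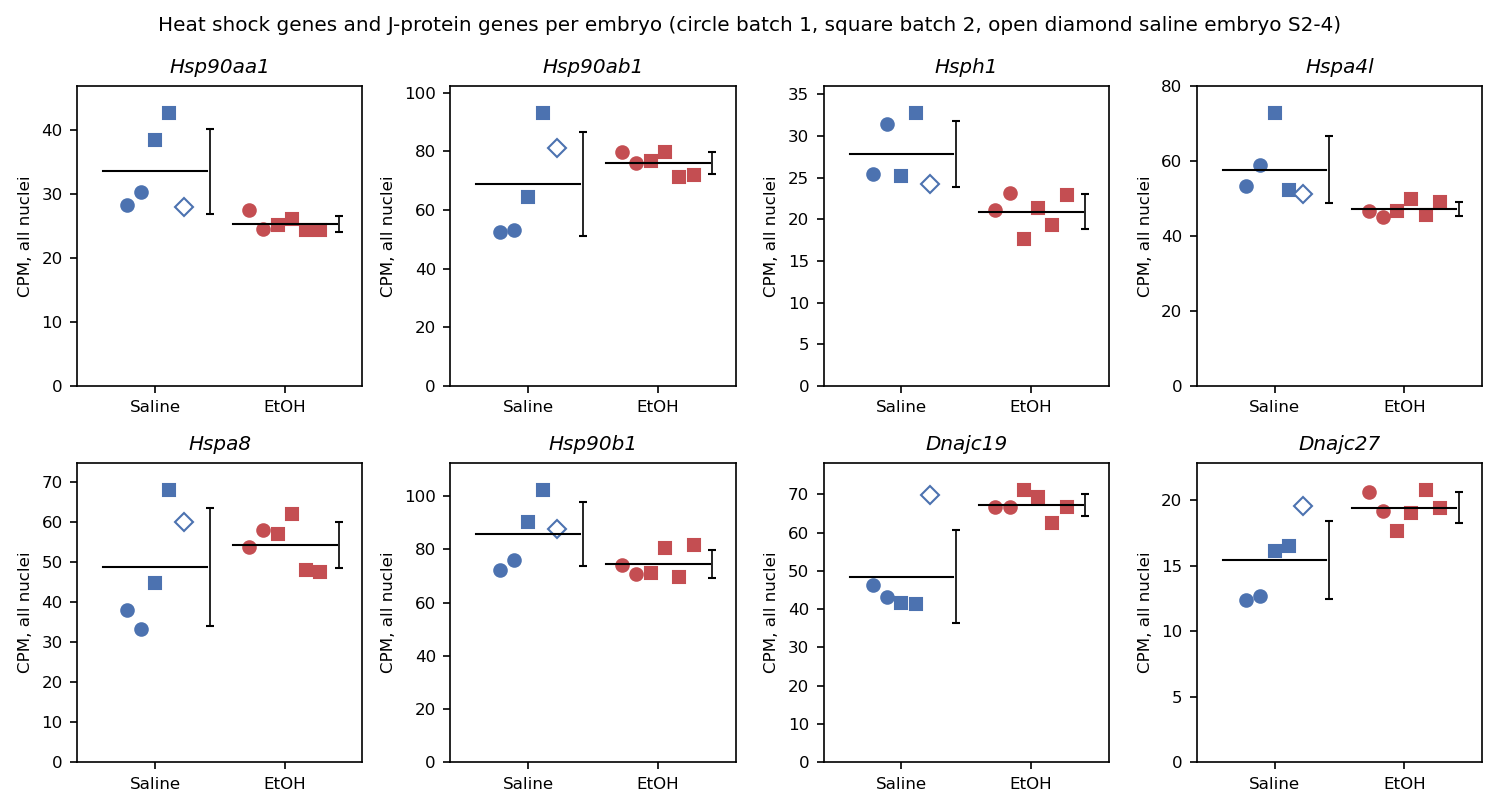
CPM over all nuclei of 8 members in each saline embryo (blue) and EtOH embryo (red), with circles for batch 1, squares for batch 2, an open diamond for S2-4, a line for the group mean and a bar for the SD. EtOH points lie below all saline points for Hsp90aa1, Hsph1 and Hspa4l, and for Dnajc19 the open diamond at 69.9 CPM lies among the EtOH points.

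Of the HSP110 genes, Hsph1 and Hspa4l fell over all nuclei. Hsph1 (chr5:149614287-149636376, - strand) was at 25.4, 31.4, 25.3, 32.7 and 24.2 CPM over all nuclei in saline and at 17.7, 21.2 and 23.2 CPM in EtOH. No embryo of either group reached the other, and S2-4 was the lowest saline embryo. Hsph1 fell by 0.47 ± 0.09 SE on the log2 scale (adjusted p = 0.0172, edgeR with Benjamini-Hochberg adjustment) and by 0.53 ± 0.09 without S2-4 (adjusted p = 0.000681, same test). Batch 1 gave -0.51 (adjusted p = 0.0193, same test), batch 2 -0.44 (adjusted p = 0.182) and batch 2 without S2-4 -0.54 (adjusted p = 0.0109). The call was lost without S1-2 or E1-2 (highest adjusted p = 0.0564, same test).
Hsph1 was on the lower side in 16 of 21 clusters tested. Within types, Hsph1 was called only in the RGC, and the test of the difference between PN and RGC did not pass (0.08 ± 0.10 SE, adjusted p = 0.824, edgeR with Benjamini-Hochberg adjustment). In PN, interneurons, IPC and the other clusters it was at -0.32, -0.31, -0.27 and -0.28 (adjusted p from 0.0859 to 0.268, edgeR with Benjamini-Hochberg adjustment). The part of the RGC share in its fall over all nuclei was not tested. In the RGC it was at 49.6, 61.1, 45.2, 57.0 and 44.8 CPM in saline and at 35.8, 39.0 and 41.3 CPM in EtOH, without overlap (-0.47 ± 0.09 SE, adjusted p = 0.0442, same test), and the call was lost whenever any embryo other than S2-4 was left out (highest adjusted p = 0.119, same test). In RGC 1 of Cluster 2 it was at 50.3, 67.0, 48.5, 59.3 and 42.9 CPM in saline and at 32.8, 37.5 and 44.8 CPM in EtOH, where S2-4 fell inside the EtOH range (-0.54 ± 0.12 SE, adjusted p = 0.0435, same test). In the interneuron precursors of Cluster 3 it was at 48.1, 55.1, 47.1, 53.9 and 51.6 CPM in saline and at 28.2, 36.0 and 37.8 CPM in EtOH. There all 5 saline embryos, S2-4 included, were well above all 6 EtOH embryos (-0.58 ± 0.11 SE, adjusted p = 0.0409, same test). Without S2-4 it was called in Clusters 2, 3, 4 and 6 and in RGC and PN, where 5.81% and 6.37% of all genes were called lower and 12% and 14.3% higher. In Cluster 12, where its level was highest, it was not called with S2-4 (-0.28 ± 0.17 SE, adjusted p = 0.387, same test) or without (-0.40 ± 0.16 SE, adjusted p = 0.108, same test). Leaving out any other embryo ended both cluster calls.

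Hspa4l, an HSP110 relative known from testis and kidney (chr3:40744495-40796103, + strand), was at 53.3, 59.1, 72.8, 52.3 and 51.3 CPM over all nuclei in saline and at 45.2, 46.7 and 50.01 CPM in EtOH. The groups did not overlap, with S2-1 far above the other saline embryos. It fell by 0.37 ± 0.10 SE on the log2 scale (adjusted p = 0.0294, edgeR with Benjamini-Hochberg adjustment) and by 0.43 ± 0.09 without S2-4 (adjusted p = 0.00261, same test), with -0.45 in batch 1 (adjusted p = 0.00639) and -0.32 in batch 2 (adjusted p = 0.270). In batch 2 without S2-4 its value was -0.43 and did not pass (adjusted p = 0.0699, same test). The call held in only 3 of 11 fits that left out 1 embryo. It was on the lower side in 21 of 25 clusters tested but, with all embryos, was called in no cluster and no major type. Without S2-4, Hspa4l was called lower in IPC, PN, interneurons and the other clusters. It was not called in RGC (-0.21, adjusted p = 0.395, same test), the type in which its level was highest. Its cluster means were 94.7 to 107 CPM in RGC and 28.1 to 52.4 CPM in PN. The part of the RGC share in its fall over all nuclei was not tested. Hspa4, the third HSP110 gene, was at 0.00 ± 0.05 SE (adjusted p = 0.961, same test).

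Over all nuclei, 4 members had every EtOH embryo below every saline embryo (6.15% of 65, against 2.1% of all genes tested). They were Hsp90aa1, Hsph1, Hspa4l and Hspa13, an HSP70 relative of the endoplasmic reticulum (ER) at 12.3 to 13 CPM in saline and 11.5 to 12.2 CPM in EtOH. With every EtOH embryo above every saline embryo there was 1 member (1.54%, against 1.95%), Hspa12a. Without S2-4 the counts were 5 below, with Dnajc5 added (7.69%, against 4.92%), and 8 above (12.3%, against 17.8%). Hspa12a was at 22.4 to 25.4 CPM in saline and 26.8 to 31.6 CPM in EtOH, a log2 fold change of 0.22 ± 0.06 SE below the fold limit. Within clusters it was on the higher side in 10 of 21. Cluster 4, where it is high, held 3.37% of the nuclei of S2-1. It held 6.13% to 8.52% in the other saline embryos and 6.66% to 12.8% in EtOH embryos. The part of this share, or of other clusters where Hspa12a is high, was not tested.

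Among the chaperones of the ER, Hsp90b1, the HSP90 of the ER lumen (GRP94; chr10:86690209-86705509, - strand), fell in projection neurons. In PN it was at 60.6, 63.5, 77.7, 89.8 and 67.1 CPM in saline and at 55.7, 56.9 and 66.5 CPM in EtOH. S1-1 and S1-2 lay within the EtOH range and S2-1 and S2-2 far above it. It fell by 0.32 ± 0.07 SE on the log2 scale (adjusted p = 0.0302, edgeR with Benjamini-Hochberg adjustment), where 2.95% of all genes tested in PN were higher and 1.92% lower. Without S2-4 it fell by 0.38 ± 0.06 (adjusted p = 0.000243, same test), where 14.3% of all genes tested in PN were higher and 6.37% lower. In the callosal PN of Cluster 1 it was at 81.9, 81.4, 95.5, 108 and 84.3 CPM in saline and at 62.8, 75.9 and 82.3 CPM in EtOH, with S1-1 and S1-2 just below the highest EtOH embryo (-0.32 ± 0.08 SE, adjusted p = 0.0403, same test). Either call was lost in most fits without 1 embryo. With nuclei thinned to 2000 UMIs the PN value was -0.23 (adjusted p = 0.108, same test), and -0.27 without S2-4 (adjusted p = 0.0259, same test), which missed the fold limit.
Interneurons gave a similar value (-0.29 ± 0.07 SE, adjusted p = 0.0447, same test), as did all nuclei (-0.28 ± 0.06 SE, adjusted p = 0.0183, same test), and with counts per embryo both missed only the fold limit. With counts summed per dam, all nuclei gave -0.26, which did not pass adjustment either (adjusted p = 0.0915, same test). Over all nuclei, batch 1 gave -0.19 (adjusted p = 0.0720, same test), batch 2 -0.32 (adjusted p = 0.176) and batch 2 without S2-4 -0.38 (adjusted p = 0.00747). The difference between interneurons and PN was 0.03 ± 0.08 SE (adjusted p = 1.00, same test). In RGC the log2 fold change of Hsp90b1 was -0.08 ± 0.05 SE (adjusted p = 0.335, same test). Interneurons against RGC gave a difference of -0.28 ± 0.07 SE (adjusted p = 0.153, edgeR with the embryo as a block). Without S2-4 that difference was -0.30 ± 0.08 SE (adjusted p = 0.172, same test). The test of PN against RGC gave a difference of -0.30 ± 0.08 SE (adjusted p = 0.165, edgeR with Benjamini-Hochberg adjustment and the embryo as a block), and without S2-4 -0.36 ± 0.07 SE (adjusted p = 0.0210, same test). That was the only 1 of 175 member tests of differences between RGC, PN and interneurons to pass without S2-4 (0.571%, where 0.364% of all such tests passed as lower and 0.134% as higher), and with S2-4 none passed (where 0.0106% of all such tests passed as higher and 0% as lower), although 24 had an unadjusted p under 0.05, where 9.18% of all such tests did. Hspa5, the ER HSP70 known as BiP, had the smallest adjusted p of the members for the same contrast (-0.33 ± 0.08 SE, adjusted p = 0.160, same test). It was called lower in PN without S2-4 (-0.39 ± 0.11 SE, adjusted p = 0.0199, edgeR with Benjamini-Hochberg adjustment).

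With all embryos, the J-proteins called were Dnajc19 and Dnajc27, both higher. Dnajc19, of the mitochondrial inner membrane import motor (chr3:34056020-34081321, - strand), was at 46.4, 43.3, 41.6 and 41.3 CPM over all nuclei in S1-1, S1-2, S2-1 and S2-2, at 69.9 CPM in S2-4 and at 62.5, 66.7 and 71.2 CPM in EtOH. The 4 other saline embryos lay far below EtOH, and S2-4 lay inside the EtOH range. It rose by 0.40 ± 0.12 SE on the log2 scale (adjusted p = 0.0371, edgeR with Benjamini-Hochberg adjustment), and by 0.56 ± 0.06 without S2-4, a fold of 1.47 (adjusted p = 4.53e-05, same test). Batch 1 gave 0.41 (adjusted p = 0.00892), batch 2 0.40 (adjusted p = 0.266) and batch 2 without S2-4 0.67 (adjusted p = 0.000761, same test). The pooled call was lost whenever any embryo other than S2-4 was left out.
Dnajc19 was on the higher side in 24 of 24 clusters tested. In PN it was at 39.1, 39.6, 31.9, 34.4 and 52.9 CPM in saline, S2-4 being the last, and at 46.5, 55.9 and 61.3 CPM in EtOH (0.45 ± 0.11 SE, adjusted p = 0.0431, same test), and this call too was lost without any embryo other than S2-4 (highest adjusted p = 0.102, same test). Without S2-4 it was called higher in all 5 major types and in 17 clusters, with log2 fold changes from 0.46 to 0.92.
Dnajc27, a J-protein with a Rab-like GTPase fold (chr12:4082583-4110606, + strand), was at 22.4, 20.8, 23.7, 24.4 and 30.6 CPM in RGC of saline embryos and at 30.6, 32.8 and 39.7 CPM in EtOH. S2-4 again stood nearest to EtOH, at the level of the lowest EtOH embryo. It rose by 0.39 ± 0.10 SE in RGC (adjusted p = 0.0476, edgeR with Benjamini-Hochberg adjustment), and the call was lost whenever any embryo other than S2-4 was left out. Without S2-4 it was called higher in RGC (0.46), interneurons (0.45), the other clusters (0.56) and all nuclei (0.33). The calls were lost after thinning. With nuclei thinned to 2000 UMIs it was 0.13 in RGC (adjusted p = 0.651, edgeR with Benjamini-Hochberg adjustment) and, without S2-4, 0.16 in RGC (adjusted p = 0.545, same test) and 0.14 over all nuclei (adjusted p = 0.351, same test). In RGC, batch 1 gave 0.54 (adjusted p = 0.0242, same test), batch 2 0.32 (adjusted p = 0.419) and batch 2 without S2-4 0.41 (adjusted p = 0.0567). In interneurons without S2-4, 12.8% of all genes tested were higher and 3.68% lower.

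Further members were called over all nuclei only without S2-4. Dnaja2, a cytosolic partner of HSC70, was at 41.9, 40.1, 39.7 and 47.4 CPM in the 4 saline embryos, at 61.6 CPM in S2-4 and at 52.5, 56.0 and 63.9 CPM in EtOH. It rose by 0.34 ± 0.06 SE without S2-4 (adjusted p = 0.000878, edgeR with Benjamini-Hochberg adjustment), in all 5 major types and in 9 clusters, and was at 0.23 ± 0.09 SE with S2-4 (adjusted p = 0.0851, same test). Hspa12b, the HSP70 relative of endothelial cells, was at 1.81, 2.28, 3.44 and 2.66 CPM, at 4.95 CPM in S2-4 and at 3.91, 4.33 and 4.76 CPM in EtOH. It rose by 0.63 ± 0.12 SE (adjusted p = 0.00226, same test). The summed endothelial markers (4 of 4 in the files, none at 0) were at 7.23 to 10.2 CPM in those 4 saline embryos, 12.9 CPM in S2-4 and 6.91 to 13.2 CPM in EtOH, and their part in this result was not tested. Dnaja4 (0.39) rose at means under 3 CPM, and Dnajb5 fell (-0.34). Dnajb7 (1.19), Dnajb8 (0.67) and Dnajc5b (0.85) rose at group means of only 0.229 to 0.833 CPM. With nuclei thinned to 2000 UMIs and S2-4 left out, Dnajb5 was at -0.23 (adjusted p = 0.115, edgeR with Benjamini-Hochberg adjustment) and Dnaja4 at 0.31 (adjusted p = 0.402, same test). With S2-4 included Dnajb7 was the highest fold among members (1.09 ± 0.36 SE, adjusted p = 0.0532, same test), on 166 UMIs in all.

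**Figure D4:**
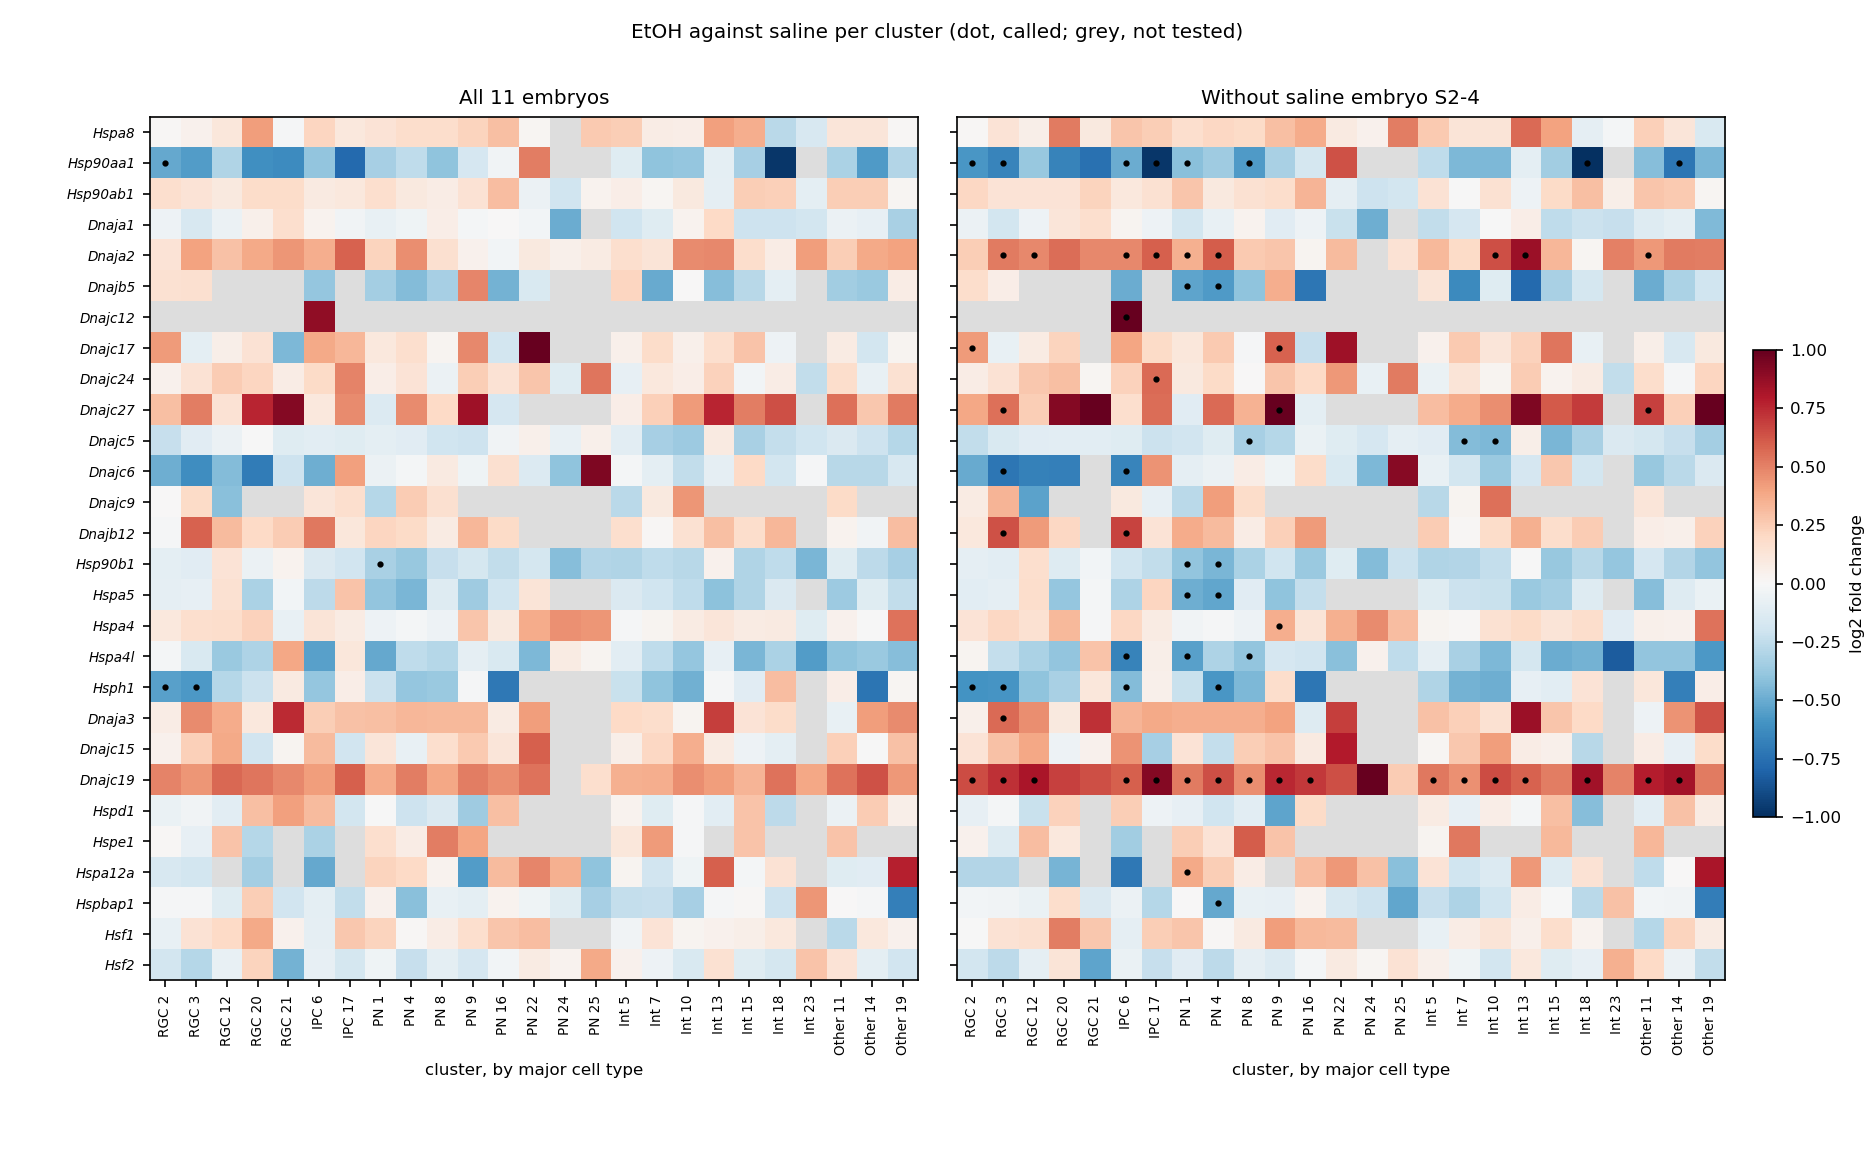
Log2 fold change of EtOH against saline (red higher, blue lower, grey not tested) for the named members and those called in any cluster, by role group, in 25 clusters, with all 11 embryos at the left and without S2-4 at the right, and a dot where a member was called. The left panel holds 4 dots (Hsp90b1 in Cluster 1, Hsp90aa1 in Cluster 2 and Hsph1 in Clusters 2 and 3) and the right panel 65, of which 17 lie in the uniformly red Dnajc19 line.

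By role, over all nuclei with all embryos, 2 of 4 HSP110 and exchange genes and 1 of 2 cytosolic HSP90 genes were lower, and 1 of 8 mitochondrial members was higher, where 3.35% of all genes were lower and 7.63% higher. None of 3 tested cytosolic HSP70 genes, 10 ER members, 3 cytosolic DNAJA, 8 DNAJB, 19 DNAJC and 2 small heat shock genes was called in that fit, with 29 of the 65 members at an unadjusted p under 0.05 in edgeR (44.6%, against 37.2% of all genes). Without S2-4, 2 of 3 DNAJA, 2 of 19 DNAJC and 2 of 8 DNAJB were higher and 1 DNAJB lower, where 16.3% of all genes were higher and 6.95% lower. Role groups had median log2 fold changes from -0.20 (HSP110, and cytosolic HSP90) to 0.23 (DNAJA) over all nuclei, and each rests on few genes.

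Related pathways were read from lists set beside the members. Over all nuclei, where 3.35% of all genes were lower and 7.63% higher, 1 of 24 co-chaperones tested was lower and 1 higher. Bag3, the nucleotide exchange factor induced with HSP70, was at 1.14, 1.02, 1.49, 1.73 and 1.09 CPM in saline and between 0.606 and 1.07 CPM in EtOH, with a small overlap, and fell by 0.77 ± 0.19 SE (adjusted p = 0.0251, edgeR with Benjamini-Hochberg adjustment). Ahsa1, the activator of the HSP90 ATPase, rose by 0.40 ± 0.12 SE (adjusted p = 0.0397, same test), and S2-4 at 14.6 CPM stood with EtOH (12.1 to 14.6 CPM) rather than with the other saline embryos (7.81 to 9.72 CPM). Chordc1 (-0.25) and Stip1 (-0.19), both HSP90 co-chaperones, passed adjustment but not the fold limit. Of 13 chaperonin and prefoldin genes tested, none was called, and Pfdn2 (-0.28), Vbp1 (-0.26) and Tcp1 (-0.18) passed adjustment but not the fold limit. Of 17 genes of the unfolded protein response, Manf (0.66) and Xbp1 (0.32) were higher and none was called lower, and the list's median was -0.11. The smallest adjusted p-values of that list belonged to Pdia4 (-0.27), Pdia3 (-0.23) and Canx (-0.18), folding factors of the ER, which passed adjustment but not the fold limit. Manf was at 90.5 CPM in S2-4, inside the EtOH range of 79.9 to 92.2 CPM and above the 35.5 to 55.4 CPM of the other saline embryos. Without S2-4, where 16.3% of all genes were higher and 6.95% lower, 2 co-chaperones were higher, Ahsa1 (0.57) and Stub1 (0.39), and Bag3 was again lower (-0.86), while Manf (0.90) and Xbp1 (0.38) were higher. Over clusters without S2-4, 22 of 443 co-chaperone tests and 18 of 319 tests of the unfolded protein response were higher, and 3 and 4 lower, against 5.53% and 2.75% of all tests. Of 6 immediate-early genes that could be tested none was called with S2-4, and Junb was higher without it (0.91 ± 0.16 SE, adjusted p = 0.00114, same test). With S2-4, Junb was at 0.62 (adjusted p = 0.0651, same test), Nr4a1 at 0.26 (adjusted p = 0.0668) and Dusp1 at -0.26 (adjusted p = 0.137). Ahsa1, Manf and Xbp1 were picked after their values were seen.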

How the data were processed

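The authors isolated nuclei, prepared 3′ gene expression libraries and, per the submitters' processing notes, used Cell Ranger with the mm10 genome. The deposited tables hold raw UMI counts per gene and nucleus for each embryo and cluster, after the authors' quality filters, clustering and removal of clusters. Cell Ranger was run with its default settings, which count sense reads for 3′ libraries. Its version, and so its default for introns, is not given in the sources used here. No doublet caller was run here. Sequencing depth was 14078316 to 83061737 UMIs per embryo, and p-values cover the spread between embryos only.

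Counts were summed per embryo and cluster (at least 10 nuclei, at least 2 embryos per group, which dropped 9 embryo-cluster sums), per major cell type and over all nuclei. edgeR 4.0.16 (TMM scaling, filterByExpr, quasi-likelihood test, batch and treatment as terms) was fitted to all genes of each table, with Benjamini-Hochberg adjustment per fit. Differences between types used 1 fit with the embryo as a block. The filter keeps a gene that is high in only 1 group. CPM are unscaled. Scripts were tested on simulated data. Alternatives used RLE scaling, DESeq2 1.42.0, limma 3.58.1 (voom with dam as a block), no filter, no batch term, sums per dam, nuclei thinned to 2000 UMIs (387 shallower nuclei left out), single batches and leaving out embryos. Coordinates are from GENCODE M21 (GRCm38).

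Named members are those called, 13 regulators and inducible members, the 6 most uneven over clusters and the largest change per direction, and from each related list at most 3 genes by adjusted p. Members and lists were chosen with earlier results of these data known. Fits with S2-4 left out within batch 2 or after thinning were added after seeing the data.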

Additional observations from a re-analysis of the deposited data

Results flagged for a closer look

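Dnajc19 in saline embryo S2-4 stood far from the other saline embryos over all nuclei. Its 69.9 CPM lay 0.820 of the group's whole range away from the nearest other saline embryo (46.4 CPM), above the limit of 0.71 for 5 samples. Among the 38 groups examined in this way, chance marks about 1 in 20, and no other named member was marked.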

How the results depend on the processing

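Member calls depended on the embryos and on the fit. With all embryos there were 0 higher and 4 lower calls over clusters, 3 higher and 7 lower over the major types and all nuclei, and 0 differences between types. Leaving out 1 embryo gave 0 to 38 higher and 0 to 27 lower calls over clusters, 0 to 30 higher and 0 to 20 lower over types and 0 to 1 differences, the highest count being the fit without S2-4 each time. The higher and lower counts over clusters were 8 and 7 with DESeq2, 13 and 4 in batch 1, 0 and 0 in batch 2, 21 and 21 in batch 2 without S2-4, 17 and 18 with no filter, 4 and 4 with no batch term, 4 and 3 with sums per dam, 2 and 1 with the dam as a random block, 0 and 0 after thinning, 13 and 5 after thinning without S2-4, and 0 and 1 with adjustment over all fits. Over types they were 8 and 11, 24 and 7, 0 and 0, 19 and 19, 3 and 15, 7 and 8, 4 and 6, 4 and 7, 0 and 2, 19 and 11, and 4 and 9 in the same order, and 8 and 18 with no fold limit. RLE scaling left these counts the same, as did a limit of at least 20 nuclei for the counts over clusters, the only ones to which it applies. Of all tests over clusters, 2.38% were higher and 1.49% lower in batch 1, and 3.41% and 2.14% in batch 2 without S2-4. Over types, these shares were 2.75% and 1.36% with all embryos and 7.76% and 4.48% in batch 1. They were 8.15% and 4.45% in batch 2 without S2-4, and 12.6% and 5.28% in both batches without S2-4. In batch 2 with S2-4 they were 0.0116% and 0.0107% over clusters and 0.0023% and 0.0069% over types. For the other alternatives no such share is given here, so their counts do not show whether members moved apart from all genes.

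Hsp90aa1, Hsph1, Hspa4l and Dnajc19 kept their direction over all nuclei in each alternative. With counts summed per dam these 4 passed adjustment over all nuclei (adjusted p from 0.0118 to 0.0192, edgeR). Hsp90b1 (adjusted p = 0.0915, edgeR) and Dnajc27 (adjusted p = 0.161, edgeR) did not. After thinning with all embryos, Hsp90aa1 and Hsph1 kept their calls there, and Hspa4l (adjusted p = 0.0509, edgeR) and Dnajc19 (adjusted p = 0.0822, edgeR) lost theirs, and without S2-4 all 4 were called after thinning. Small values changed sign. Hsf1 was at -0.0016 with RLE scaling, -0.0050 with DESeq2, -0.00079 with no filter and -0.0042 with sums per dam, and Hspe1 at -0.0013, -0.0018 and -0.00028 in the first 3 of these. In batch 2, with and without S2-4, Hspa8 was at -0.11 and -0.097, Hspe1 at -0.063 and -0.062, Hsp90ab1 at -0.093 and -0.094, Dnajb1 at -0.13 and -0.18, and Dnajc15 at -0.013 and -0.036. In batch 1, Dnajc9 was at 0.20 and Dnajc6 at -0.057. After thinning, Dnajb1 was at -0.068, and -0.12 without S2-4. Leaving out 1 embryo moved Hspe1 from -0.026 to 0.086, Dnajb1 from -0.057 to 0.18 and Dnajc9 from -0.10 to 0.044. The cause was not tested.

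No paired analysis was possible because the sample numbers only name embryos within a dam. Dams of the 2 treatments are matched by batch, which is a term of the fit. Depth limits members under about 3 CPM, and 2 dams per treatment limit the rest.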
